A study of Mus musculus with 2 samples.

Results

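The genes described here join glucose use with the response to low oxygen. There are 6 genes of glucose uptake and glycolysis (Slc2a1, Hk2, Aldoa, Pgk1, Eno1 and Ldha). The other 4 (Pdk1, Vegfa, Car9 and Bnip3) are further known targets of the hypoxia-inducible factors (HIF), which raise glycolytic genes too. The members were found by gene name among the gene spots of both scanner files: 10 genes of 30011, carried by 15 probes of 39429 and by 60 spots per array of 157716. All 15 probes were well above background on both arrays in both genotypes, so all 10 genes were among the 22070 tested. The rule goes by name and uses no measured value, but the members were chosen with earlier results of these data known.

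The mutant RNA, called Fgfr1/2cDKO in the labels, came from ureters with 1 Cre allele at Tbx18, Tbx18(cre/+), that were Fgfr1(fl/fl) and also Fgfr2(fl/fl). The control RNA came from ureters that were Fgfr1(fl/?) and Fgfr2(fl/?), where the second allele of each is not given. Both genotypes were of the NMRI strain, were dissected at stage E15.5 and were then kept on transwell membranes for 6 days. Cre made from the Tbx18 locus acts in the mesenchyme around the ureteric tube and not in its epithelium, while the RNA came from the whole organ. No Cre allele is listed for the controls, so effects of losing the receptors and of carrying Cre at Tbx18 cannot be told apart, and whether embryos were pooled is not stated. Array 1 carries the label male and holds mutant RNA in Cy5, array 2 carries the label female and holds it in Cy3, and control RNA lies in the other dye of each. A difference between the arrays thus mixes replicate, sex label and dye, which cannot be told apart. Nothing says that the replicates came from separate litters, so p-values speak of the scatter of these samples alone, and that scatter may be technical.

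Cells take up glucose through carriers such as the product of Slc2a1 and split it in the cytosol by a chain of enzymes whose last step, lactate dehydrogenase, lets the chain run without oxygen. When oxygen is scarce, the HIF alpha subunits escape hydroxylation by the Egln enzymes and destruction through Vhl, pair with Arnt and raise transcription of glycolytic genes together with genes of vessel growth, pH control and mitochondrial turnover. Growth factor signalling through receptor tyrosine kinases can feed into the same genes, and an explanted organ on a membrane lacks blood flow.

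None of the 10 genes passed the test between mutant and control ureters, and their mean log2 ratios lay between -0.29 (Pgk1) and 0.09 (Slc2a1). With limma's moderated test on the log2 ratio of mutant over control, Benjamini-Hochberg adjusted over all genes, 0 of 10 had an adjusted p below 0.05 (percent called over all genes 4.01%, with 1.87% higher and 2.14% lower in the mutant), and the lowest adjusted p was 0.152, that of Pgk1. With every probe tested on its own, 0 of 15 member probes passed (percent called over all probes 5.11%). At an unadjusted p below 0.05 there were 3 (Pgk1, Hk2 and Bnip3), all lower in the mutant, where 22.5% of all genes passed that rule and 11.4% passed it in the lower and 11.1% in the higher direction. On both arrays the ratio lay below 0 for 5 of the 10 (Pgk1, Eno1, Hk2, Pdk1 and Bnip3; 35.9% of all genes) and above 0 for none (30.5% of all genes), and for the other 5 the arrays had opposite signs (33.5% of all genes). The median log2 ratio of the members was -0.11 (-0.19 on array 1 and -0.15 on array 2), beside -0.02 over all genes tested (-0.03 and -0.0024). After loess normalisation the 95% confidence intervals of all 10, not adjusted for the number of genes, lay between 0.690-fold, the lower bound of Pgk1, and 1.26-fold, the upper bound of Slc2a1. Median centring of the arrays gave wider intervals that reached lower, down to a log2 ratio of -0.97 for Ldha.

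**Figure D1:**
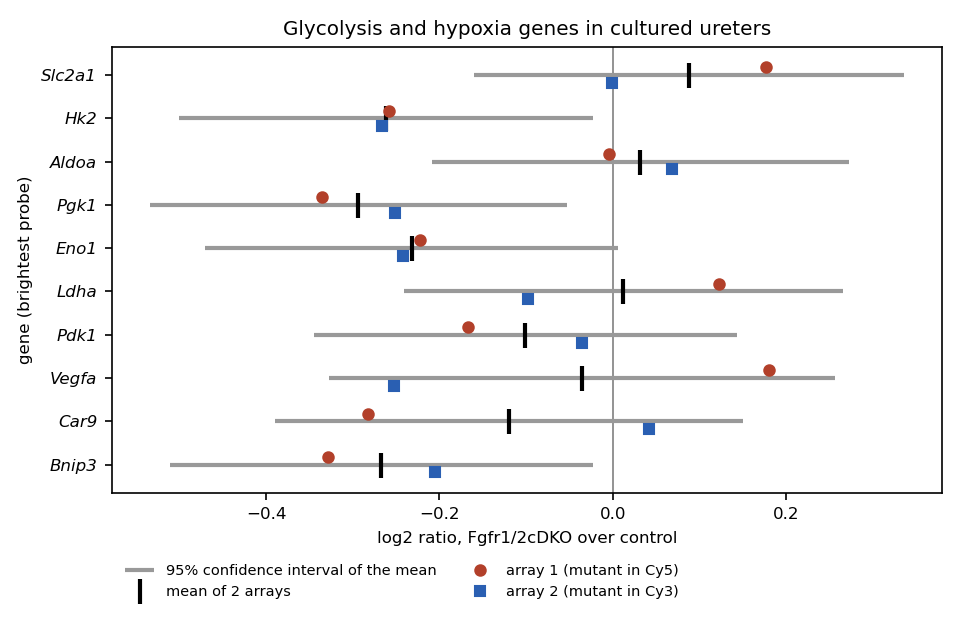
Log2 ratio of Fgfr1/2cDKO over control (x axis) for the brightest probe of each gene (y axis), with array 1 as circles, array 2 as squares, the mean as a tick and its 95% confidence interval as a grey line. The means lie between -0.29 for Pgk1 and 0.09 for Slc2a1, and 5 genes have both arrays left of 0.

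Both arrays lay on 1 slide and were read in 1 scan, and no gene spot was saturated. Well above background were 69.3% and 72.3% of probes in mutant RNA, against 77.4% and 73.5% in control RNA. Across the genes tested, the ratios on array 1 and array 2 correlated at r = 0.519; genes are not independent replicates. The targeted genes stood at -0.33 ± 0.15 log2 for Fgfr1 (SD, n = 2 arrays; limma adjusted p = 0.133) and at 0.56 ± 0.02 log2 for Fgfr2 (adjusted p = 0.0295). Their other probes had -0.37 and -0.54 for Fgfr1 and 0.76 for Fgfr2, and whether these probes lie in the deleted part is not known here.

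Slc2a1, the main glucose carrier of many embryonic cells, was read by 1 probe at chr4:118809864-118809923 on the plus strand of mm9, the build of the probe positions. Its normalised intensity, the background-corrected signal after scaling between arrays, was 15207 and 14609 in mutant ureters, against 13455 and 14619 in control ureters. The mutant value was higher on array 1 and level with the control on array 2, and the groups overlapped. The log2 ratio averaged 0.09 ± 0.13 (SD, n = 2 arrays; 95% confidence interval -0.16 to 0.34), with a limma adjusted p of 0.677.

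Hk2 encodes an inducible hexokinase, which traps glucose in the cell by phosphorylation. Its probe (chr6:82675056-82675115, minus strand) had an intensity of 2002 and 2457 in mutant RNA, against 2393 and 2954 in control RNA. Each mutant sample lay below the control on its own array, but the second mutant sample exceeded the first control sample, so the groups overlapped. Ratios of -0.26 and -0.27 made this the member on which the arrays differed least, by 0.0082. The mean was -0.26 ± 0.0058 (unadjusted p = 0.0350, limma adjusted p = 0.188).

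Aldoa encodes the aldolase that splits fructose bisphosphate and was the brightest member, at the 99.5th percentile of the mean intensity over tested genes. Its probe (chr7:133938816-133938875, minus strand) gave 114340 and 132520 in mutant ureters, against 114720 and 126380 in control ureters. The groups overlapped, and the log2 ratio was 0.03 ± 0.05 (95% confidence interval -0.21 to 0.27; limma adjusted p = 0.889).

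Pgk1 encodes phosphoglycerate kinase, the first enzyme of the chain that yields ATP. The probe (chrX:103398640-103398699, plus strand) gave 29253 and 26634 in mutant ureters, against 36915 and 31712 in control ureters. Both mutant samples lay below both control samples, which was so for 3 members (Pgk1, Pdk1 and Bnip3) and for 23.5% of all genes; the reverse held for 0 members and 21.5% of all genes. Its level in the mutant was 0.816-fold that of the control, a log2 ratio of -0.29 ± 0.06 (n = 2 arrays; 95% confidence interval -0.53 to -0.05), with an unadjusted p of 0.0224 and a limma adjusted p of 0.152.

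Eno1 encodes the enolase found in most tissues. Its intensity at chr4:149622928-149622987 (plus strand) was 39788 and 32405 in mutant RNA, against 46408 and 38339 in control RNA. The mutant was lower within each array, with ratios of -0.22 and -0.24, while the samples overlapped between arrays. The mean of -0.23 ± 0.01 had an unadjusted p of 0.0553 and a limma adjusted p of 0.234.

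Ldha encodes the lactate dehydrogenase subunit that favours making lactate from pyruvate. Its brightest probe (chr7:54110937-54110996, plus strand) gave 95386 and 80853 in mutant ureters, against 87632 and 86538 in control ureters. The arrays had opposite signs, 0.12 and -0.10, and the mean of 0.01 ± 0.16 had a limma adjusted p of 0.963. Both other probes of the gene showed the same order of the arrays, 0.28 and -0.11 at chr7:54103010-54103069 and 0.06 and -0.20 at chr7:54107294-54107353.

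Some of these probes can hardly tell their gene from a near copy. The Eno1 probe shares a stretch of 53 of its 60 bases with a probe named Eno1b, which had ratios of -0.23 and -0.24. The Pgk1 probe shares 53 bases with a probe that the files name only by a transcript, with ratios of -0.33 and -0.26, and the brightest Ldha probe shares 33 with an unnamed probe at 0.13 and -0.06. Values of Eno1, Pgk1 and Ldha may therefore include signal of such copies, while the other 12 member probes shared no stretch of 20 bases or more with a probe of another name.

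Pdk1 encodes a kinase that shuts off pyruvate dehydrogenase and so keeps pyruvate from the mitochondria. At chr2:71739688-71739747 (plus strand) it gave 1128 and 1190 in mutant ureters, against 1266 and 1220 in control ureters. The mutant samples lay below the controls without overlap, and the log2 ratio was -0.10 ± 0.09 (95% confidence interval -0.35 to 0.14; limma adjusted p = 0.617).

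Vegfa encodes the growth factor that drives the growth of blood vessels. Its brightest probe (chr17:46154387-46154446, minus strand) gave 10577 and 8359 in mutant ureters, against 9331 and 9959 in control ureters. On array 1 the mutant was higher and on array 2 lower, with ratios of 0.18 and -0.25, an array difference of 0.43 that exceeded that of 91.1% of genes (median over all genes 0.16). The other probe, at chr17:46162376-46162435, had the same order, 0.30 and -0.06. The mean of the brightest probe was -0.04 ± 0.31 (95% confidence interval -0.33 to 0.26; limma adjusted p = 0.898).

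Car9 encodes a carbonic anhydrase at the cell surface that helps export acid, and is widely used as a marker of hypoxic cells. It was the dimmest member, at the 37.4th percentile of intensity, with 472 and 568 in mutant ureters, against 574 and 551 in control ureters (chr4:43526518-43526577, plus strand). The low mutant sample was that of array 1, and the groups overlapped. Ratios of -0.28 and 0.04 gave a mean of -0.12 ± 0.23 (95% confidence interval -0.39 to 0.15; limma adjusted p = 0.589).

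Bnip3 encodes a protein of the outer mitochondrial membrane that takes part in mitophagy. Its brightest probe (chr7:146082760-146082819, minus strand) gave 7873 and 9041 in mutant ureters, against 9892 and 10419 in control ureters, with no overlap between the groups. The log2 ratio was -0.27 ± 0.09 (95% confidence interval -0.51 to -0.02), with an unadjusted p of 0.0351 and a limma adjusted p of 0.188. The other probes of the gene did not share that pattern on array 1, with 0.10 and -0.40 at chr7:146082640-146082699 and 0.01 and -0.35 at chr7:146082536-146082595. Bnip3, Ldha and Vegfa are the members with several probes. Over all 15 member probes, 5 had a ratio below 0 on both arrays, none above 0 on both, and 10 had opposite signs. These counts take Bnip3, Ldha and Vegfa several times. The shares over all probes were not computed, and those over all genes were 35.9%, 30.5% and 33.5%.

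**Figure D2:**
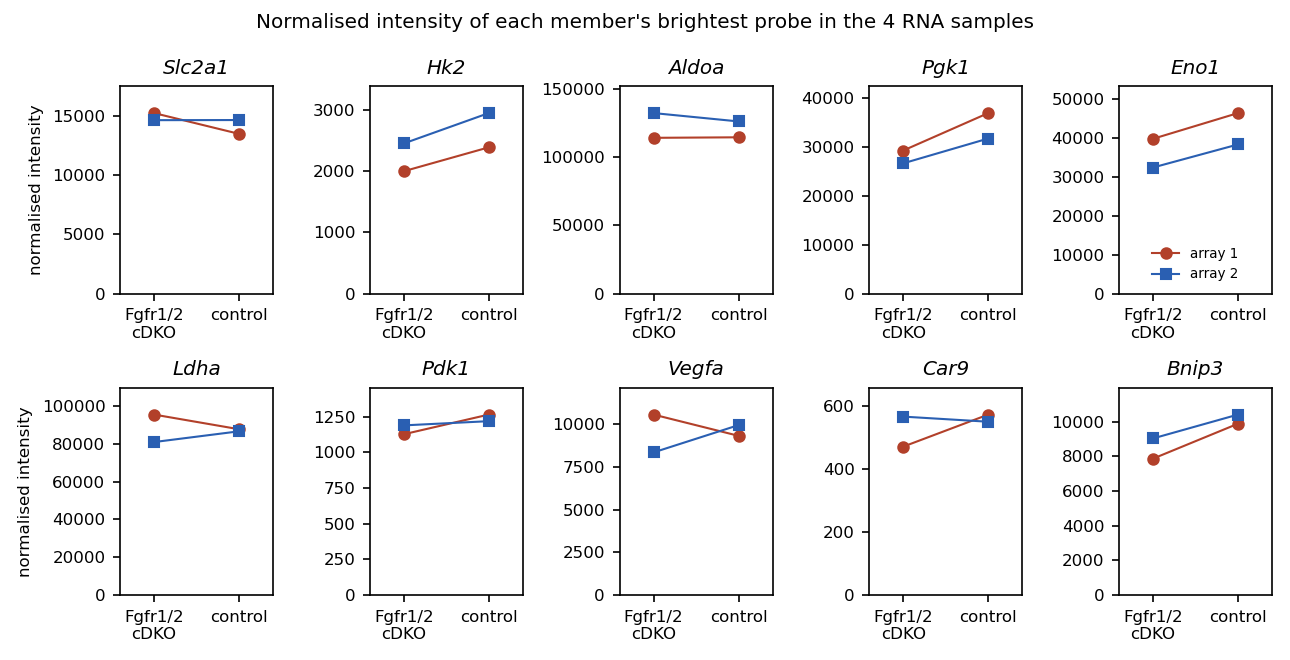
Normalised intensity (y axis, from 0) of each member's brightest probe in Fgfr1/2cDKO and control RNA (x axis), with a line joining the samples of one array. Only Pgk1, Pdk1 and Bnip3 have both mutant samples below both control samples, and Aldoa is the brightest and Car9 the dimmest of the 10.

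**Figure D3:**
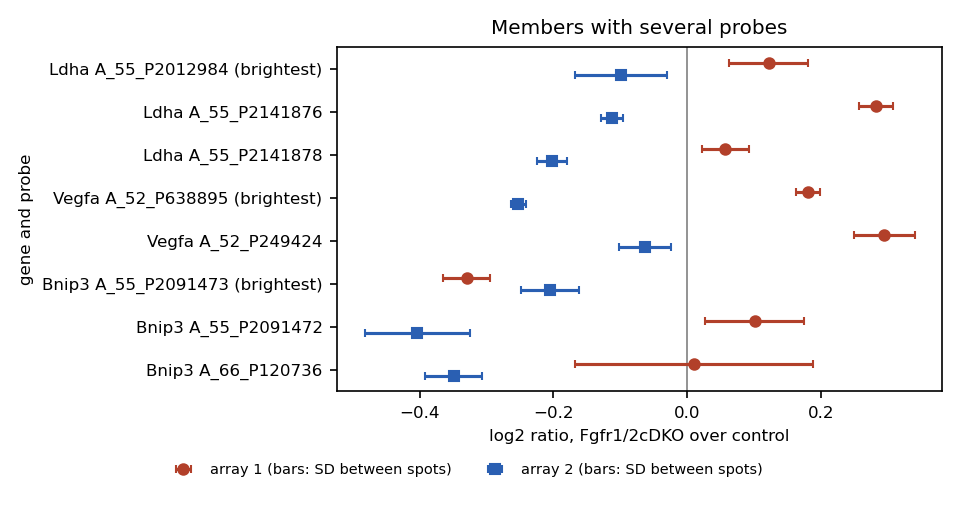
Log2 ratio of Fgfr1/2cDKO over control (x axis) for each probe of Ldha, Vegfa and Bnip3 (y axis), with bars for the SD between spots of the probe on that array. Every probe of Ldha and Vegfa lies above 0 on array 1 and below 0 on array 2, while the probes of Bnip3 differ from each other on array 1.

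The size of the ratios depended on how each array was normalised. Under median centring, which shifts all probes of an array alike, in place of loess, which fits the shift to intensity, all 10 means lay below 0, the member median was -0.31 and the median of all genes was -0.14. Bright probes of array 2 moved most: loess had raised the ratio of Aldoa there by 0.85, of Ldha by 0.75, of Eno1 by 0.57 and of Pgk1 by 0.53, and that of Car9 by 0.13. On array 1 the shift ran from -0.16 for Aldoa to 0.18 for Pdk1 and Hk2. Median-centred intervals reached -0.97 for Ldha, -0.94 for Eno1, -0.93 for Pgk1 and -0.90 for Aldoa, and no member passed there either (lowest adjusted p = 0.114, Bnip3). Relative to the median of all genes, 7 of the 10 lay lower with loess and 10 of 10 with median centring. Which normalisation is nearer to the RNA amounts was not tested.

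**Figure D4:**
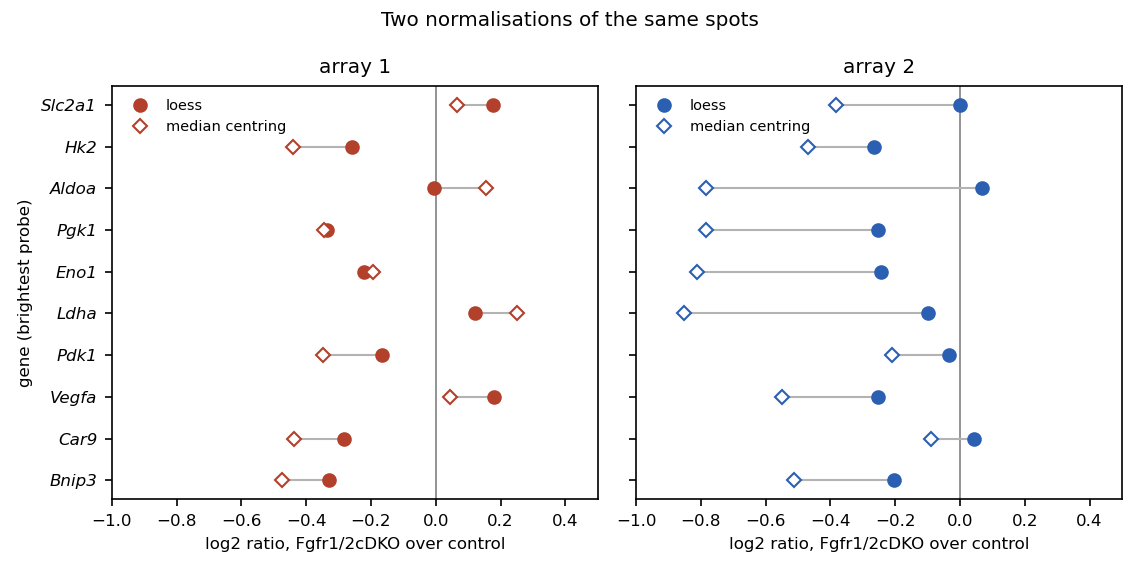
Log2 ratio of Fgfr1/2cDKO over control (x axis) of each member (y axis) on array 1 and array 2, after loess (filled circles) and after median centring (open diamonds). On array 2 Ldha lies at -0.10 after loess and -0.85 after median centring, while on array 1 it lies at 0.12 and 0.25.

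The HIF subunits and regulators hold the machinery upstream of the members. Of 11 tested, 0 passed in either direction, with a median log2 ratio of 0.11. At a limma unadjusted p below 0.05 there were 4 (22.5% of all genes). On both arrays 6 lay above 0 (30.5% of all genes) and 1, Hif1a, lay below 0 (35.9% of all genes). Hif1a, the oxygen-regulated subunit, had an intensity of 7084 and 7150 in mutant ureters, against 9790 and 8524 in control ureters, so that both mutant samples lay below both controls. Its log2 ratio was -0.36 ± 0.15 (limma adjusted p = 0.109), and -0.13 in its other probe. Egln2 and Egln1, prolyl hydroxylases that mark the alpha subunits for destruction, stood at 0.40 ± 0.22 and 0.35 ± 0.08 (adjusted p = 0.0993 and 0.109), with 0.12 in the other probe of Egln2. By their brightest probes the remaining named genes stood at 0.17 for Vhl, at 0.11 for Arnt, at 0.05 for Epas1, the second oxygen-regulated subunit, and at 0.04 for Egln3, itself a HIF target. The other probes of Epas1 had -0.26, below 0 on both arrays (-0.31 and -0.22), and -0.0081, those of Arnt had -0.08 and 0.18, and that of Egln3 had 0.05.

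Other glycolytic enzymes and transporters gave no call either, 0 of 25 tested, with a median of -0.08. On both arrays 10 lay below 0 (35.9% of all genes) and 8 above 0 (30.5% of all genes). Among those of smallest p were Pfkfb1, whose product regulates glycolysis, at -0.43 ± 0.22 (limma adjusted p = 0.0792), and the aldolase gene Aldoc at 0.34 ± 0.11 (adjusted p = 0.117). Among genes that control pyruvate dehydrogenase, 1 of 10 passed, lower in the mutant (percent called lower over all genes 2.14%), and the list's median was -0.22. At a limma unadjusted p below 0.05 there were 6 (22.5% of all genes). On both arrays 5 lay below 0 (35.9% of all genes) and 3 above 0 (30.5% of all genes). The gene that passed was Pdk4, a kinase with the same target as Pdk1. It had 624 and 683 in mutant ureters, against 980 and 881 in control ureters. Both mutant samples lay below both controls, and the log2 ratio was -0.51 ± 0.20 (limma adjusted p = 0.0487).

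HIF target genes other than the members included 2 of 25 that passed, both lower (percent called lower over all genes 2.14%), with a list median of -0.05. On both arrays 11 lay below 0 (35.9% of all genes) and 4 above 0 (30.5% of all genes). Angptl4, a secreted inhibitor of lipoprotein lipase that adipocytes also make, had 6873 and 4054 in mutant ureters, against 9424 and 9028 in control ureters. Its ratios were -0.46 and -1.16, and the mean of -0.81 ± 0.49 had a limma adjusted p of 0.0351. Ero1a, an oxidase that forms disulphide bonds in the endoplasmic reticulum, had 894 and 740 in mutant ureters, against 1284 and 1022 in control ureters, without overlap. The arrays were close for that gene, -0.52 and -0.47, with a mean of -0.49 ± 0.04 (limma adjusted p = 0.0426). Of 12 alternative settings, the call was lost in 6 for Angptl4, in 5 for Ero1a and in 7 for Pdk4, with the sign kept in all.

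Counted over the genes of all 8 pathway lists, 3 of 105 tested passed, or 2.86%, beside 4.01% of all genes. A limma unadjusted p below 0.05 was held by 4 of 25 glycolysis genes, 6 of 25 HIF target genes and 3 of 8 VEGF genes. It was also held by 6 of 12 carbonic anhydrases, 1 of 8 mitophagy genes and 1 of 8 stress response genes, beside 22.5% of all genes. By their brightest probes, none of 8 VEGF ligands and receptors passed (median -0.03). There the smallest p belonged to the lymphatic growth factor gene Vegfc at 0.35 ± 0.12 (limma adjusted p = 0.108), the co-receptor gene Nrp1 at -0.36 ± 0.25 (adjusted p = 0.134) and the placental growth factor gene Pgf at -0.31 ± 0.11 (adjusted p = 0.144). The receptor genes Kdr, Flt1 and Nrp2 have 2 probes each, and these differed. Their brightest probes gave -0.14, 0.17 and 0.03. Their other probes gave -0.53, -0.49 and -0.12, each below 0 on both arrays. Of 12 carbonic anhydrases 0 passed, with the lowest median of the pathway lists, -0.29. On both arrays 8 of them lay below 0 (35.9% of all genes) and 0 above 0 (30.5% of all genes). Car2 stood at -0.65 ± 0.48 (limma adjusted p = 0.0566), Car3 at -0.63 ± 0.47 (adjusted p = 0.0615) and Car7 at -0.37 ± 0.05 (adjusted p = 0.0873). Mitophagy and mitochondrial BH3 genes gave 0 of 8 (median 0.03), with Bcl2l13 at 0.30, Fundc1 at -0.18 and Pink1 at 0.17. For Pink1 the arrays had opposite signs, -0.05 and 0.40. Genes of the integrated stress response, which some low-oxygen states switch on, gave 0 of 8 as well (median -0.0005), with Sesn2 at 0.26, Atf4 at 0.28 (0.03 in its other probe) and Ddit3 at -0.17. Both probes of Atf4 had opposite signs on the arrays, 0.69 and -0.12 in the brightest and 0.27 and -0.21 in the other.

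**Figure D5:**
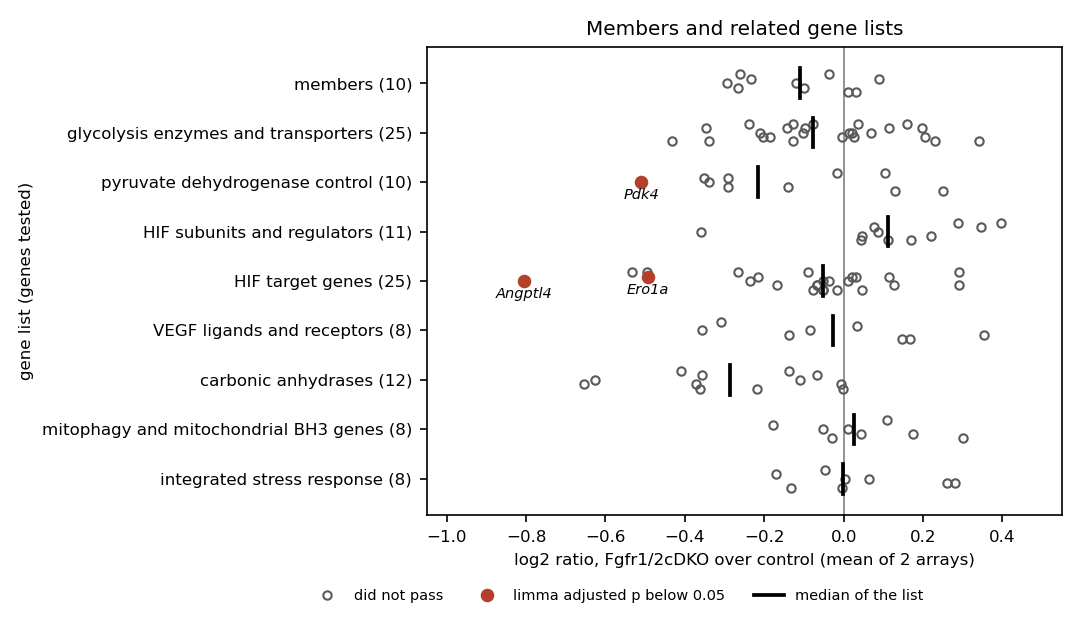
Log2 ratio of Fgfr1/2cDKO over control (x axis, mean of 2 arrays) of each tested gene in the member set and the 8 pathway lists (y axis, genes tested in brackets), with list medians as black lines. Filled points passed at an adjusted p below 0.05: Angptl4, Ero1a and Pdk4, all lower in the mutant.

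Markers of other cell types moved between the same samples, in lists chosen with earlier results of these data known. Over all genes, 2.14% were called lower in the mutant and 1.87% higher. In whole ureters, fewer cells of a type and less RNA per cell cannot be told apart. Of adipocyte markers 6 of 8 tested were lower and 0 higher, with a median of -1.78. Their summed intensity was 52928 and 26577 in mutant ureters, against 88408 and 73156 in control ureters. On both arrays 7 lay below 0 (35.9% of all genes) and 1, Pparg, above 0 (30.5% of all genes). Pparg had ratios of 0.15 and 0.25 and did not pass. It makes up 22243 and 19862 of the mutant sums, against 20088 and 16715 of the control sums. Retn stood at -1.65 ± 0.59 (limma adjusted p = 0.00901) and Fabp4 at -1.99 ± 1.19 (adjusted p = 0.0191), while Lep was not well above background. Of endothelial markers 8 of 11 were lower, with a summed intensity of 5630 and 6178 in mutant ureters, against 8781 and 8097 in control ureters, and with Esam at -0.68 and Cdh5 at -0.69. Macrophage markers passed as lower in 4 of 8, neuronal and Schwann markers in 4 of 9, and striated muscle markers in 1 of 6. Epithelial markers passed as higher in 4 of 10, superficial urothelium markers in 3 of 7 and kidney tubule markers in 3 of 6. On both arrays 7 of the epithelial markers lay above 0 (30.5% of all genes) and 1, Krt5, below 0 (35.9% of all genes). Krt5 had ratios of -0.25 and -0.68 and did not pass (limma adjusted p = 0.081). Ureteric smooth muscle markers passed in 0 of 9 and erythroid markers in 0 of 3, and of 9 ureteric mesenchyme markers 1 was higher and 1 lower. The part of these shifts in the values of the members, Angptl4 and Pdk4 was not tested.

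HIF dimers bind DNA at short words, spelled here ACGTG and GCGTG and searched on both strands of RefSeq promoter windows of GRCm38.p6 that run from 250 bases before to 50 after a start. The words occurred in at least 1 window of 10 of 10 members and of 46.73% of 27025 genes. At least 2 matches stood in 1 window for 8 members and for 22.88% of genes. Genes with more windows have more places for a match. Counted by window, the words stood in 82.35% of the 17 member windows and in 43.77% of all 32851 windows. The median GC content was 65.7% in member windows and 52.7% in all windows, so the members' windows are also richer in the bases of those words. A palindrome CACGTG holds ACGTG on both strands and so counts as 2 overlapping matches. The 4 windows below are those of the 3 members with the lowest ratios (Pgk1, Bnip3 and Hk2) and of Ldha, which has the most matches and a ratio near 0. They lie at chrX:106186850-106187149 (plus strand, 2 matches), chr7:138909457-138909756 (minus strand, 5 matches, 1 CACGTG), chr6:82774405-82774704 (minus strand, 2 matches) and chr7:46845554-46845853 (plus strand, 7 matches, 2 CACGTG). Each runs 5′ to 3′ on the strand of its gene, and capitals mark the matches on either strand. A second window of Ldha, at chr7:46846832-46847131 (plus strand, 2 matches, no CACGTG), is not shown.
Pgk1: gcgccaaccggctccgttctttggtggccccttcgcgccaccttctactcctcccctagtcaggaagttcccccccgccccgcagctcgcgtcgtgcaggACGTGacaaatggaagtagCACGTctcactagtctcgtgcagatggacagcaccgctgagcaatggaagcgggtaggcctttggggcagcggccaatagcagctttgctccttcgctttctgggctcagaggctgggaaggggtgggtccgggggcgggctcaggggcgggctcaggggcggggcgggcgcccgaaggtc
Bnip3: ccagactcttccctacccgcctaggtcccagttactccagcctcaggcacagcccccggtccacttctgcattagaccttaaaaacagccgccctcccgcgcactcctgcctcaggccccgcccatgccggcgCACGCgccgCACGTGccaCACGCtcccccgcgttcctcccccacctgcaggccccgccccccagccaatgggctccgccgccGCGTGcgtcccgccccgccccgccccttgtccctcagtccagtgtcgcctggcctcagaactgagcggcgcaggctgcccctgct
Hk2: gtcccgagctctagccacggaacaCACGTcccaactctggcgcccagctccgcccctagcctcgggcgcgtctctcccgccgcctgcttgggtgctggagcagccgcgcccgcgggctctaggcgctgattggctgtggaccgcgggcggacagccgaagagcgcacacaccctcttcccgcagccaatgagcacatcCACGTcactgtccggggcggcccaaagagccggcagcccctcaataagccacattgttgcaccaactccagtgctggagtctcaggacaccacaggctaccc
Ldha: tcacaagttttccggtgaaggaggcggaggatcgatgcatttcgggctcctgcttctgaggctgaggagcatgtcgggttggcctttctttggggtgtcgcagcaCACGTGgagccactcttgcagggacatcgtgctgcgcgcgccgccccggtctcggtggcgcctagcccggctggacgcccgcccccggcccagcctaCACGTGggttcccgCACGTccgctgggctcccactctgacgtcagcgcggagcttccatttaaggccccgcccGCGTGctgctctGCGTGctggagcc
These letters describe the windows and not binding in the ureter, which the arrays did not measure.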

How the data were processed

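Total RNA of cultured ureters, 150 ng per labelling per the labels, was measured on 2 two-colour Agilent arrays with dyes swapped. The deposited scanner files hold intensity values that, per the submitters' processing notes, came from the scanner software Agilent Feature Extraction, version 10.7.3.1, and log10 ratios, red over green, per the file headers. The deposited value table holds a score per probe that was read as a signed fold change. With its sign kept as deposited and its size taken to log2, it correlated with the scanner ratios, turned to mutant over control, at r = 0.844 and 0.848 across probes. The median of the score as deposited was 1 on both arrays, and how it was averaged or centred is unknown.

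Mean and background signals were corrected by normexp (offset 50, which pulls ratios of dim probes towards 0) and normalised by loess within arrays with limma 3.58.1 in R 4.3.3. Control spots had weight 0, and outlier spots, 3.17% and 3.65%, were left out. The 4 spots of a probe were averaged; a gene was its brightest tested probe. Levels were scaled between arrays by Aquantile. Of 39429 probes, 28328 were named by accession and 3400 by symbol through RefSeq, and 7701 kept the file's name. A probe had to be well above background in 1 genotype or both, on each array, and 28915 were tested, as 22070 genes. Ratios, turned by the labels' dyes, were tested against 0 (lmFit, eBayes, two-sided, Benjamini-Hochberg, threshold 0.05, prior degrees of freedom 7.61); the array pairs the RNAs. Alternatives covered the background correction, normalisation, value table, dim-probe filter, probe rule, variance model, separate channels and leaving out an array. The code was tested on simulated data. The number of arrays limits the precision. The median SD was 0.05 log2 between spots and 0.11 between arrays.

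The text names all members, both targeted genes, the called genes of a pathway list or else its 3 of smallest p, 6 HIF pathway genes set by name, and the 2 of smallest p of the adipocyte and endothelial lists. It also names the VEGF receptor genes with 2 probes, and Pparg and Krt5, which lay against the direction of their marker lists. Otherwise the marker lists are given as counts. A gene that the rule names is not reported here. Members and lists were chosen with earlier results of these data known.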

Additional observations from a re-analysis of the deposited data

Results flagged for a closer look

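For 5 members the log2 ratio of mutant over control had opposite signs on the array labelled male and the array labelled female, as it did for 33.5% of all genes tested. Vegfa stood at 0.1807 on the male array and -0.2526 on the female array. Car9 had -0.2823 (male) and 0.042 (female). For Ldha the values were 0.1223 (male) and -0.098 (female), and for Slc2a1 they were 0.1766 (male) and -0.0011 (female). Aldoa gave -0.0047 (male) and 0.0683 (female). The difference between the arrays was not tested, since each sex label has 1 array, and sex, dye orientation and replicate cannot be told apart.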

How the results depend on the processing

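Members called stayed at 0 under all 12 alternatives run (0 of 15 probes where every probe was tested on its own), with adjusted p between 0.114 and 0.983. Of 120 member values under these settings, 116 kept their sign and 4 did not: with median centring Slc2a1 was at -0.16, Ldha at -0.30 and Aldoa at -0.31, and with the mean over probes Vegfa was at 0.0401. The member median was -0.31 under median centring, ranged from -0.19 to -0.15 with 1 array left out, and lay between -0.11 and -0.09 otherwise. The genes called over the whole table, 884 as reported, depended on the setting: 10 with the scanner software's processed signals (4621 at an unadjusted p below 0.05), 0 with limma after median centring (5616 unadjusted), 170 with the authors' value table, 1479 of 28915 with every probe on its own, 1460 with a variance trend, 216 with separate channels and the array as replicate block, and 3 with separate channels and no replicate block, of which 66.7% were higher in the mutant, against 46.6% as reported. The cause was not tested. Members at an unadjusted p below 0.05 numbered from 0, with the value table or without the block, to 4, with median centring or without the filter. The adjusted p of Angptl4 ran from 0.00731 to 0.354, of Ero1a from 0.0281 to 0.389 and of Pdk4 from 0.0327 to 0.308. The number of arrays, 2, limits the precision.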
